A study of Mus musculus with 6 samples.

Results

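The genes described here encode WNT ligands, the Frizzled receptors and the LRP and ROR co-receptors that bind them, their secreted antagonists (SFRP, WIF1 and Dickkopf proteins), the R-spondins, the AXIN scaffolds and the TCF/LEF transcription factors. A rule on the symbol, set with earlier results of these data known, matched 52 of the 29955 genes in the deposited expression table. Their mRNA levels were measured by RNA-seq in mouse embryonic fibroblasts (MEFs), which are fibroblasts grown from dissociated embryos, in 3 Rnf40+/+ and 3 Rnf40-/- samples at passage 3. RNF40 is a subunit of the E3 ligase that monoubiquitinates histone H2B, and the comparison asks which mRNAs change without it. The cells came from embryos homozygous for an Rnf40 allele with exons 3 and 4 between loxP sites (Rnf40 loxP/loxP), which also carried Rosa26-CreERT2, a Cre recombinase made in all cell types and switched on by tamoxifen. Rnf40-/- cells received 250 nM 4-hydroxytamoxifen (4-OHT) over 5 days and were then grown 3 days without it. Whether 4-OHT was also given to the sequenced Rnf40+/+ cells is not stated in the sources, so the deletion and the treatment cannot be told apart. The sources also do not state that the samples of a genotype came from separate embryos, so p-values measure the spread between these samples, which may be technical.

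WNT proteins are lipid-modified secreted ligands. In the canonical branch a ligand brings a Frizzled receptor together with LRP5 or LRP6, which recruits AXIN to the membrane and stops the destruction complex from degrading beta-catenin, and beta-catenin then enters the nucleus and binds TCF/LEF factors. In the non-canonical branches, of which WNT5A is the best known ligand, Frizzled and ROR receptors act on cell polarity, movement and calcium. SFRP proteins and WIF1 bind the ligands, Dickkopf proteins bind LRP5 and LRP6, and R-spondins keep Frizzled receptors on the cell surface by way of LGR receptors and the ubiquitin ligases ZNRF3 and RNF43. Mesenchymal cells are a main source of these ligands and modulators in the embryo.

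The deposited values are normalized counts, meaning the reads of a gene after division by the size factor of its library. The libraries held between 17053436 and 26344170 reads on genes, and 3 reads, taken as the limit of detection, corresponded to a normalized count between 2.40 and 3.58. Of all 50-base stretches of their protein-coding transcripts, Wnt4 shared 3.26% with those of other genes, Dkk1 1.05% and the other members 0.232% or less. Transcripts of non-coding genes were not searched. The test was limma on the log2 scale, log2(normalized count + 1), and a gene was called when its p, adjusted over all 16378 genes tested by Benjamini-Hochberg, was under 0.05. With the added 1, the fold change of a gene with few reads is understated. Rnf40 itself was lower in Rnf40-/- MEFs (log2 fold change -1.30, adjusted p = 4.25e-07). Rnf40+/+ replicate 3 differed most from the others of its genotype over all genes, with a chi-square per gene of 28.8 and 25.9 against replicates 1 and 2, which differed from each other by 8.35. For some of the members it was replicate 1 that stood apart. In replicate 1, 256 of the tested genes (1.56%) were over 2 times as high as in both other Rnf40+/+ libraries, against 72 genes for replicate 2 and 188 for replicate 3. Over 2 times as high as both others were Tcf7 in replicate 1 and Wnt4 in replicate 3, of the tested members. Calls that were lost without either library are given beside the results.

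Of the 52 members, 37 had enough reads to be tested. Of these 37, 35 passed the limit on reads in all 6 libraries, while Fzd10 and Wnt3a passed it in 3 Rnf40-/- libraries and 2 Rnf40+/+ libraries. A total of 22 members were called in limma, 11 higher and 11 lower in Rnf40-/- MEFs, which is 59.5% of those tested. Over all genes tested 47.4% were called, with 23.3% higher and 24.1% lower, and the share of members called in each direction was 29.7%. The median log2 fold change of the 37 members was 0.09, against -0.0035 over all genes, and the median size of the change without its sign was 0.48, against 0.33. In 23 members the values of the genotypes did not overlap (62.2%), 11 higher and 12 lower, compared with 56.5% of all genes (27.8% higher and 28.7% lower). By the thresholds named in the study's methods (a mean above 15, an unadjusted p under 0.05 and a log2 fold change beyond 1 in size), only Wnt2 and Fzd10 were higher and only Dkk2 and Tcf7 were lower, with Tcf7 lost and Axin2 added as higher (1.27) when Rnf40+/+ replicate 1 was left out, and Wnt10a added as higher (1.17) when Rnf40+/+ replicate 2 was left out. Of all genes, 9.95% passed the same thresholds, 4.25% as higher and 5.7% as lower ones.

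**Figure D1:**
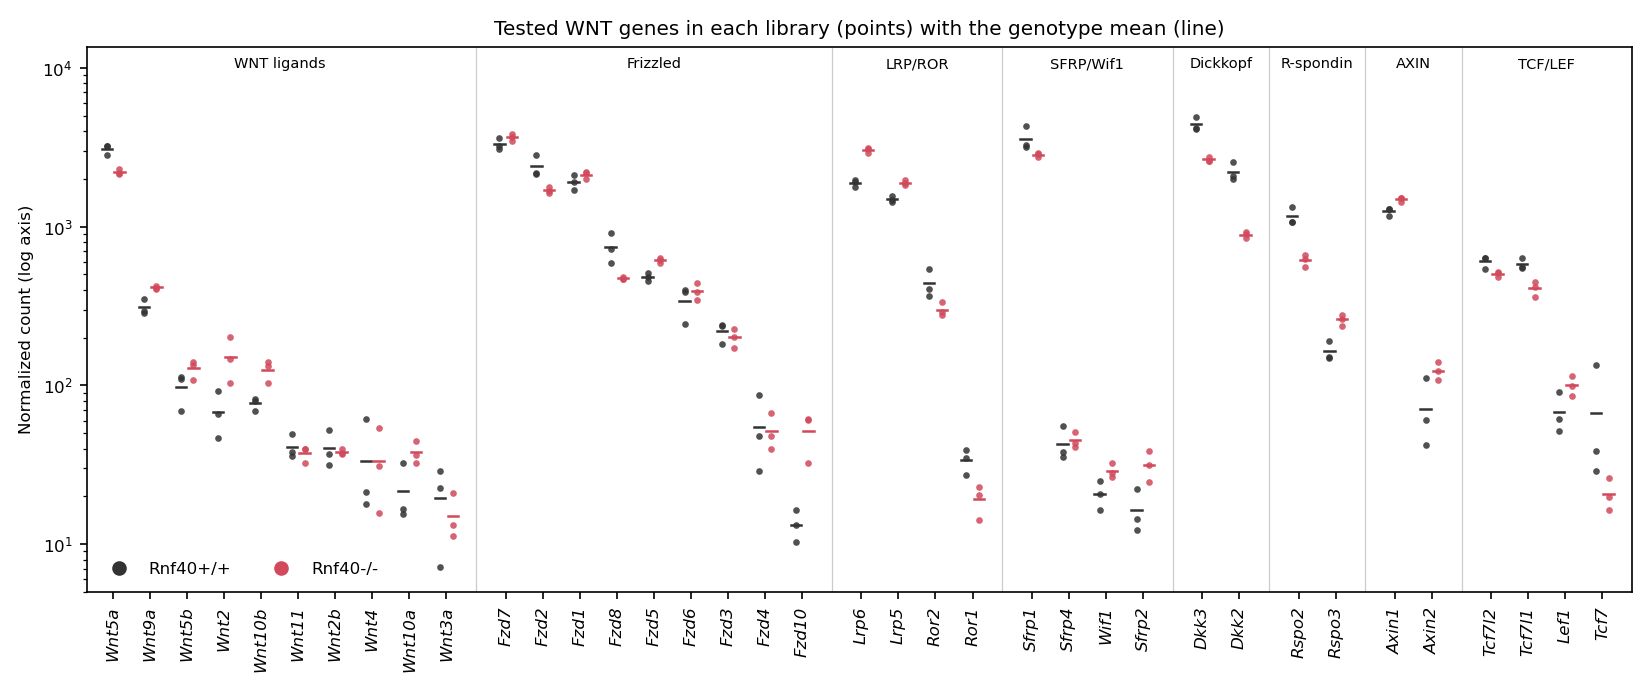
Normalized counts (log axis) of the 37 tested members in each of the 3 Rnf40+/+ (dark) and 3 Rnf40-/- (red) libraries, ordered by role and, within a role, by level, with a line at each genotype's mean. Wnt5a, Fzd7, Sfrp1, Dkk3 and Rspo2 had the highest counts in their roles, and the red points of Dkk2 and Rspo2 lie well below the dark ones.

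Windows of 250 bases before the start of a gene were read from RefSeq for 35 of the members (43 windows, GRCm38.p6). The 3 windows shown belong to Dkk2, the member with the smallest adjusted p, and to Wnt2 and Fzd10, the 2 called members with a log2 fold change above 1. Each is written 5′ to 3′ on the strand of the gene, and capitals mark the CG dinucleotides.
Dkk2, chr3:132085042-132085291, plus strand: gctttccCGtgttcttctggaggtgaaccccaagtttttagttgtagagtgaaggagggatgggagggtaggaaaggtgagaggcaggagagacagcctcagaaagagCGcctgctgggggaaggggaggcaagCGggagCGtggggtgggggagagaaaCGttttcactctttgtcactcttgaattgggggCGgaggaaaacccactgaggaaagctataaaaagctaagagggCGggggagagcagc
Wnt2, chr6:18030446-18030695, minus strand: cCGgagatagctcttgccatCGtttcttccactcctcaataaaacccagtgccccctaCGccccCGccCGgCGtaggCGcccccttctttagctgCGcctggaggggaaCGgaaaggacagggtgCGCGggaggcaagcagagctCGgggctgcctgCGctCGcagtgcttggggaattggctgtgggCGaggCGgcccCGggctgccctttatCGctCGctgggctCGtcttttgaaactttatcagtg
Fzd10, chr5:128600856-128601105, plus strand: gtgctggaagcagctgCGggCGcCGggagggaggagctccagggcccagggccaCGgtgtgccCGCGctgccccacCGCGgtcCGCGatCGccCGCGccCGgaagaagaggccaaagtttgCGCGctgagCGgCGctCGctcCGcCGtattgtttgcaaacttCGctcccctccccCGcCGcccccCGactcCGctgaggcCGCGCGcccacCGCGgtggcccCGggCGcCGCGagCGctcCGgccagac
The Dkk2 window held 7 CG dinucleotides, the Wnt2 window 20 and the Fzd10 window 37. The median was 22 over the 43 windows of members and 6 over all 32851 windows of the table. CTTTGAA and CTTTGAT, which are cores of the sequence that TCF/LEF factors bind, were searched on both strands. One or the other was found in 3 of the 43 windows (6.98%), those of Dkk1, Wnt11 and Wnt5b, and in 7.48% of all windows. Neither was in the 3 windows shown.

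Among the ligands, Wnt5a fell and the less abundant Wnt9a, Wnt2 and Wnt10b rose. Wnt5a, the best known non-canonical ligand (mm9 chromosome 14, 29317936 to 29340633, plus strand), had normalized counts of 3223, 3202 and 2801 in Rnf40+/+ and 2300.4, 2165 and 2133 in Rnf40-/- libraries. Every Rnf40-/- value was below every Rnf40+/+ value, and the mean went from 3076 ± 238 (SD, n = 3) to 2199 ± 89.0 (SD, n = 3), or 71.5% of the Rnf40+/+ level. The log2 fold change was -0.48 (standard error, SE, 0.07, adjusted p = 0.000184 from limma). Exons of Wnt5a share 358 bases with Gm2670 on the other strand, and whether reads were counted by strand is not given in the sources used here.

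Wnt9a (mm9 chromosome 11, 59120430 to 59147054, plus strand) stood at 285, 296 and 349.8 in Rnf40+/+ and at 405, 425 and 409.8 in Rnf40-/- libraries. Its log2 fold change was 0.42 (SE 0.10, adjusted p = 0.00592 from limma). Wnt10b, a canonical ligand known for holding back fat cell differentiation, had 80.0, 69.3 and 81.5 in Rnf40+/+ and 132, 139.8 and 104 in Rnf40-/- libraries. The genotypes of both genes did not overlap, and the log2 fold change of Wnt10b was 0.69 (SE 0.17, adjusted p = 0.00648). Wnt10b lies next to Wnt1 on mm9 chromosome 15, and Wnt1, which starts at 98620288, had 1 read summed over the Rnf40+/+ and 2 reads summed over the Rnf40-/- libraries. Wnt2, a ligand of lung and heart mesenchyme (mm9 chromosome 6, 17938940 to 17980585, minus strand), had 92.0, 66.3 and 46.3 in Rnf40+/+ and 147, 103 and 203 in Rnf40-/- libraries. Its lowest Rnf40-/- value exceeded its highest Rnf40+/+ value, but the values within each genotype were spread widely, and the log2 fold change was 1.14 (SE 0.28, adjusted p = 0.00492). These 4 calls held under all 17 alternatives, with log2 fold changes from 0.89 to 1.38 for Wnt2.

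The other 6 tested ligands did not pass. Wnt10a, the neighbour of Wnt6 on chromosome 1, came nearest, with 15.5, 32.6 and 16.8 in Rnf40+/+ and 32.6, 36.5 and 44.4 in Rnf40-/- libraries (log2 fold change 0.85, adjusted p = 0.0519 from limma). The genotypes met at one value, since the highest Rnf40+/+ library equalled the lowest Rnf40-/- library to within rounding. Wnt10a was called with a minimum of 10 reads per library, a pseudocount of 5, a replicate block and without Rnf40+/+ replicate 2. Wnt5b, which acts in the non-canonical branch with Wnt5a, had a log2 fold change of 0.42 (adjusted p = 0.118). Wnt2b, Wnt3a, Wnt4 and Wnt11 lay between -0.19 and 0.05 with SEs of 0.25 to 0.50, wider than that of Wnt10b. Wnt4 varied widely within each genotype, from 17.9 to 61.5 in Rnf40+/+ and from 15.7 to 54.0 in Rnf40-/- libraries.

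Levels per kb of exon, in which genes can be compared with each other, showed the ligand mixture shifting away from Wnt5a. Wnt5a made up 61.1 ± 2.48% of the summed ligand level per kb in Rnf40+/+ and 44.3 ± 1.89% in Rnf40-/- MEFs (SD, n = 3). The share of Wnt9a was 14.6 ± 2.45% and 19.6 ± 1.02%, that of Wnt2 was 4.65 ± 1.30% and 10.5 ± 3.25%, and that of Wnt10b was 5.14 ± 0.566% and 8.46 ± 1.45%. The shares of one role sum to 100%, so a lower share of one gene raises those of the others. The summed level per kb itself was 644 ± 37.3 in Rnf40+/+ and 635 ± 17.1 in Rnf40-/- MEFs, a difference smaller than the SD. Wnt5a still had the highest level per kb of all ligands in every library, at 281 on average in Rnf40-/- MEFs against 124 for Wnt9a. Below these, Wnt2, Wnt10b and Wnt5b followed in Rnf40-/- MEFs at 67.0, 53.6 and 48.7 per kb, an order in which the SDs of neighbours overlap. In bulk RNA, fewer cells of a type and less RNA per cell cannot be told apart.

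**Figure D2:**
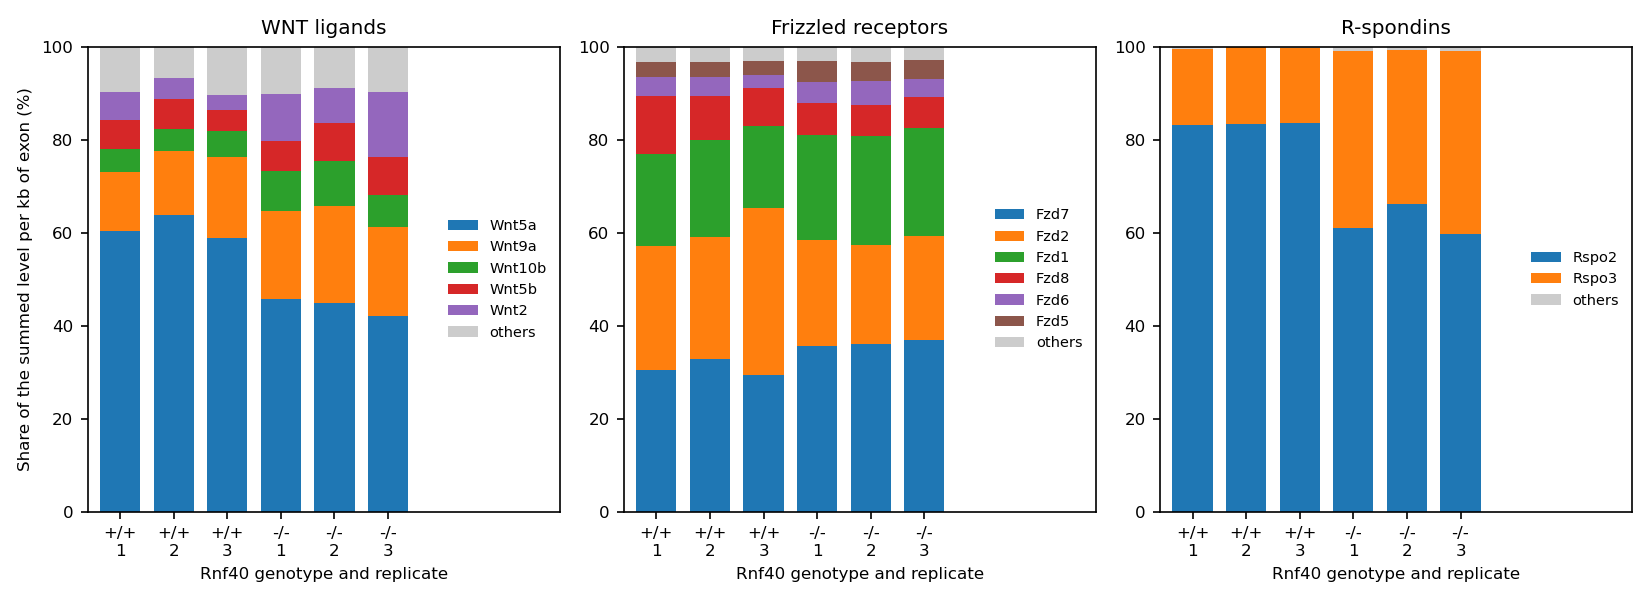
Share of the summed level per kb of exon (%) taken by each ligand, Frizzled receptor and R-spondin in the 6 libraries, with the remaining genes of the role as others. Wnt5a took 61.1% of the ligand level in Rnf40+/+ and 44.3% in Rnf40-/- MEFs, Rspo2 83.4% and 62.4% of the R-spondin level, and Fzd10 is left out because it has no exon length in the annotation used.

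Of the 9 tested Frizzled receptors, Fzd10 and Fzd5 rose, Fzd2 and Fzd8 fell and 5 did not pass. Fzd10 had the largest rise of the 37 tested members, from 13.1, 16.3 and 10.4 in Rnf40+/+ to 32.6, 61.6 and 60.4 in Rnf40-/- libraries. The lowest Rnf40-/- value was above the highest Rnf40+/+ value, and the log2 fold change was 1.85 (SE 0.33, adjusted p = 0.000737 from limma). These values rest on 40 reads over all Rnf40+/+ libraries and 155 over all Rnf40-/- libraries. Fzd2, one of the 3 abundant receptors, fell from 2140.1, 2186 and 2838 to 1675, 1618 and 1772 (log2 fold change -0.49, SE 0.10, adjusted p = 0.00156). Fzd8 had 908, 725 and 591 in Rnf40+/+ and 467, 471 and 483 in Rnf40-/- libraries (log2 fold change -0.62, SE 0.13, adjusted p = 0.0018). Its Rnf40-/- values lay close together and all below the Rnf40+/+ values. Fzd5 rose from 481, 508 and 452 to 618, 591 and 635, with a log2 fold change of 0.36 (SE 0.08, adjusted p = 0.00433). These 4 calls held under all 17 alternatives. Without Rnf40+/+ replicate 3, where Fzd2 was highest, its log2 fold change was -0.36.

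Fzd7 had the highest mean level per kb of the receptors with a length (687 in Rnf40+/+ and 761 in Rnf40-/- MEFs), but in Rnf40+/+ replicate 3 Fzd2 took 35.9% of the summed level and Fzd7 29.4%, and the Rnf40+/+ means of Fzd7 and Fzd2 (658) differed by less than their SDs. Fzd7 had a log2 fold change of 0.15 (SE 0.07, adjusted p = 0.118 from limma), and Fzd1 one of 0.16 (SE 0.08, adjusted p = 0.134). Both were called when Rnf40+/+ replicate 2 was left out, at 0.22 for Fzd7 and 0.24 for Fzd1. Fzd3, Fzd4 and Fzd6 had log2 fold changes of -0.13, 0.03 and 0.23 and overlapped between genotypes. Fzd7, Fzd2 and Fzd1 together dominated the receptor mixture in both genotypes. Fzd2 went from 29.7 ± 5.44% to 22.2 ± 0.847% of the summed level per kb and Fzd7 from 30.9 ± 1.75% to 36.3 ± 0.569% (SD, n = 3), and the ratio of Fzd2 to Fzd7 read counts, not per kb, was 0.666, 0.605 and 0.924 in Rnf40+/+ and 0.483, 0.443 and 0.461 in Rnf40-/- libraries. The sum over the 9 Frizzled genes with a length was 2223 ± 63.4 per kb in Rnf40+/+ and 2099 ± 74.6 in Rnf40-/- MEFs.

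Among the co-receptors, Lrp6 and Lrp5 rose and Ror2 fell. Lrp6, which with Lrp5 carries the canonical signal (mm9 chromosome 6, 134396494 to 134516983, minus strand), had 1785, 1975 and 1896 in Rnf40+/+ and 3106, 3067 and 2910.0 in Rnf40-/- libraries. The spread within each genotype was small beside the distance between them, and the log2 fold change was 0.68 (SE 0.07, adjusted p = 5.62e-06 from limma). Lrp5 rose less, from 1431, 1460.3 and 1565 to 1821, 1952 and 1881 (log2 fold change 0.34, SE 0.07, adjusted p = 0.00119). Per kb of exon Lrp5 was the higher of the pair, at 287 against 192 in Rnf40+/+ and 364 against 308 in Rnf40-/- MEFs. The ratio of Lrp6 to Lrp5 read counts, not per kb, was 1.25, 1.35 and 1.21 in Rnf40+/+ and 1.71, 1.57 and 1.55 in Rnf40-/- libraries. Ror2, a receptor for WNT5A, fell from 367, 407 and 541 to 277, 290.1 and 333 (log2 fold change -0.53, SE 0.14, adjusted p = 0.00814). Ror1, its paralog, had 39.4, 34.7 and 27.2 in Rnf40+/+ and 20.4, 23.0 and 14.2 in Rnf40-/- libraries, with no overlap, but did not pass (log2 fold change -0.79, adjusted p = 0.0505). Ror1 was called with a minimum of 10 reads per library, a pseudocount of 5 and without Rnf40+/+ replicate 3 (adjusted p from 0.0363 to 0.0441, limma). The calls of Lrp6, Lrp5 and Ror2 held under all 17 alternatives, with Ror2 at -0.37 without Rnf40+/+ replicate 3.

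**Figure D3:**
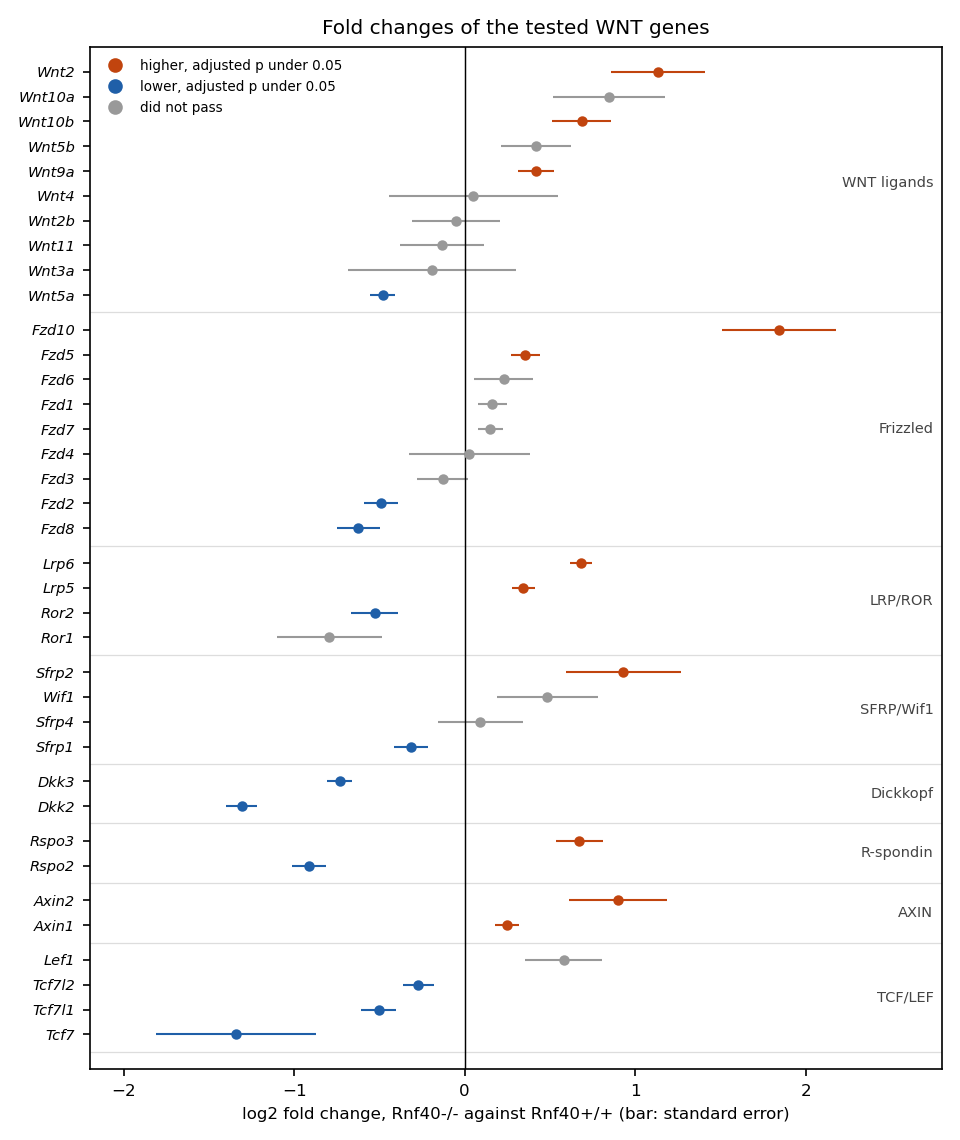
Log2 fold change of each tested member, Rnf40-/- against Rnf40+/+, with the standard error of limma as bars and colours for members that rose, fell or did not pass at an adjusted p under 0.05. Fzd10 at 1.85 and Tcf7 at -1.34 mark the ends, and the bar of Tcf7 (0.47) is the widest of the called members while that of Dkk2 (0.09) is narrow.

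Both Dickkopf genes with enough reads fell. Dkk2, which binds LRP5 and LRP6 (mm9 chromosome 3, 131748256 to 131843257, plus strand), had 2005, 2538 and 2091 in Rnf40+/+ and 841, 902 and 922 in Rnf40-/- libraries. The highest Rnf40-/- value was far below the lowest Rnf40+/+ value, and 40.2% of the Rnf40+/+ mean was left (log2 fold change -1.31, SE 0.09, adjusted p = 4.27e-07 from limma). Dkk3, a divergent member of the family whose binding to LRP receptors is disputed, fell from 4194, 4901 and 4129 to 2603, 2604 and 2729.7 (log2 fold change -0.73, SE 0.07, adjusted p = 8.87e-06). The sum of the family per kb went from 1921 ± 199.8 to 1032 ± 31.2 (SD, n = 3). Dkk2 fell more than Dkk3, since the ratio of their counts was 0.478, 0.518 and 0.507 in Rnf40+/+ and 0.323, 0.346 and 0.338 in Rnf40-/- libraries. Leaving out any one library kept the log2 fold change of Dkk2 between -1.37 and -1.20.

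Of the antagonists that bind the ligands, Sfrp1 fell and Sfrp2 rose, both with calls that did not hold throughout. Sfrp1 made up 95.5 ± 1.66% of the summed level per kb of the SFRP genes and Wif1 in Rnf40+/+ and 94.3 ± 0.826% in Rnf40-/- MEFs (SD, n = 3). Its normalized counts were 4291, 3146 and 3250.2 in Rnf40+/+ and 2755, 2889.8 and 2856 in Rnf40-/- libraries. All Rnf40-/- values were below all Rnf40+/+ values, and the log2 fold change was -0.32 (SE 0.10, adjusted p = 0.022 from limma). It was -0.17 and did not pass without Rnf40+/+ replicate 1. It also did not pass without any one of the Rnf40-/- libraries, and over all alternatives the adjusted p ranged from 0.00538 to 0.0784. Sfrp2 had 14.3, 12.2 and 22.4 in Rnf40+/+ and 38.7, 31.3 and 24.5 in Rnf40-/- libraries (log2 fold change 0.93, SE 0.34, adjusted p = 0.0384). Its groups did not overlap, but the call was lost with no gene filter, with DESeq2 and without Rnf40+/+ replicate 1 or 2 or Rnf40-/- replicate 1 or 2, where the log2 fold change was between 0.76 and 0.94. The adjusted p ranged from 0.0169 to 0.155 over all alternatives. Exons of Sfrp2 share 347 bases with Gm16790 on the other strand. Sfrp4 had a log2 fold change of 0.09 (adjusted p = 0.784). Wif1 had 25.1, 16.3 and 20.8 against 32.6, 28.2 and 26.4, values that did not overlap and did not pass (log2 fold change 0.48, adjusted p = 0.202).

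The R-spondins moved in opposite directions. Rspo2 (mm9 chromosome 15, 42852357 to 43002364, minus strand) had 1074, 1335 and 1070.1 in Rnf40+/+ and 623, 663 and 556 in Rnf40-/- libraries, a log2 fold change of -0.91 (SE 0.10, adjusted p = 1.86e-05 from limma). Rspo3 (mm9 chromosome 10, 29172915 to 29255673, minus strand) had 152, 191 and 148 in Rnf40+/+ and 278, 238 and 263 in Rnf40-/- libraries, a log2 fold change of 0.67 (SE 0.14, adjusted p = 0.0015). In neither gene did the genotypes overlap, and both calls held under all 17 alternatives. The ratio of Rspo2 to Rspo3 counts within a library was 7.08, 7 and 7.24 in Rnf40+/+ and 2.24, 2.79 and 2.11 in Rnf40-/- libraries. This ratio does not depend on the scaling of the libraries. Per kb, Rspo2 made up 83.4 ± 0.217% of the R-spondin level in Rnf40+/+ and 62.4 ± 3.41% in Rnf40-/- MEFs (SD, n = 3), and the sum of the family went from 418 ± 54.8 to 296 ± 14.1.

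Both AXIN genes rose. Axin1, the scaffold present in most cells, went from 1159.6, 1293 and 1293 to 1504, 1507 and 1430.5 (log2 fold change 0.25, SE 0.07, adjusted p = 0.0127 from limma). Its call was lost without Rnf40+/+ replicate 1 or Rnf40-/- replicate 1 or 2, at log2 fold changes of 0.19 to 0.24, and over all alternatives the adjusted p ranged from 0.00829 to 0.06. Axin2, a scaffold that is also a widely used target gene of canonical signalling, had 111, 60.2 and 42.3 in Rnf40+/+ and 108, 123 and 141 in Rnf40-/- libraries. The genotypes overlapped because Rnf40+/+ replicate 1 was as high as the Rnf40-/- libraries, and the log2 fold change was 0.90 (SE 0.29, adjusted p = 0.0222). Without that library it was 1.27 and passed, whereas without Rnf40+/+ replicate 3 it was 0.59 and did not pass. It also did not pass without Rnf40+/+ replicate 2 or Rnf40-/- replicate 2 or 3, and over all alternatives the adjusted p ranged from 0.000333 to 0.0886. Exons of Axin2 share 209 bases with Gm11670 on the other strand.

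Of the TCF/LEF factors, which carry beta-catenin to its target genes, 3 fell and Lef1 did not pass. Tcf7l1, mostly a repressor, fell from 549, 556 and 631 to 359.9, 419 and 447 (log2 fold change -0.50, SE 0.10, adjusted p = 0.00171 from limma), and this call held under all 17 alternatives. Its exons share 179 bases with Gm15401 on the other strand. Tcf7l2 had 638, 637 and 541 against 514, 507 and 479 (log2 fold change -0.27, SE 0.09, adjusted p = 0.028), and its call was lost when any one library other than Rnf40+/+ replicate 3 was left out, at log2 fold changes of -0.29 to -0.23. Over all alternatives its adjusted p ranged from 0.00488 to 0.0941. Tcf7 had 134, 38.8 and 28.7 in Rnf40+/+ and 16.3, 26.1 and 19.8 in Rnf40-/- libraries. The first Rnf40+/+ value was well above the others, and the log2 fold change was -1.34 (SE 0.47, adjusted p = 0.0332). Without that library it was -0.69 and did not pass. The call was also lost without any one Rnf40-/- library, and over all alternatives the adjusted p ranged from 0.00215 to 0.123. Lef1 had 90.8, 61.2 and 51.9 against 115, 99.1 and 85.9 (log2 fold change 0.58, adjusted p = 0.0505). It was called when Rnf40+/+ replicate 1 was left out, at 0.81. Lef1 was also called with DESeq2 scaling, a minimum of 10 reads per library, a mean above 15, a pseudocount of 5 and a replicate block. The adjusted p from limma was 0.0237 with the block and between 0.0476 and 0.04996 in the others. The sum of the 4 genes per kb went from 275 ± 18.9 to 199 ± 11.1 (SD, n = 3).

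The 15 members below the limit on reads were Wnt1, Wnt3, Wnt6, Wnt7a, Wnt7b, Wnt8a, Wnt8b, Wnt9b, Wnt16, Fzd9, Sfrp5, Dkk1, Dkk4, Rspo1 and Rspo4. Wnt9b had no read in any library, which allows up to 3 reads in each, and no member had a read in all libraries of one genotype and none in the other. Wnt7b, a ligand, and Sfrp5 and Dkk1, a pair of secreted antagonists, were highest in Rnf40+/+ replicate 1. Sfrp5 had a normalized count of 77.6 there, none in the other Rnf40+/+ libraries, and 1.02, 3.13 and 2.83 in Rnf40-/- samples. Wnt7b had 74.0 there, against 1.02 and 5.59 in the other Rnf40+/+ libraries and 2.04, 2.09 and 4.72 in Rnf40-/- libraries. Dkk1, the best known inhibitor of LRP5 and LRP6, had 50.2 there, against 7.14 and 5.59 in the other Rnf40+/+ libraries and 5.10, 5.22 and 8.50 in Rnf40-/- libraries. Of 34 markers of other cell types, 5 were over 2 times as high in this library as in both other Rnf40+/+ libraries (Krt8, Tek, Snap25, Acta1 and Des), against 1 for replicate 2 and 3 for replicate 3. Krt8, a keratin of simple epithelia, was at 58.5 against 1.02 and 9.58, while the 6 other epithelial markers were not raised in this way, and Des, the desmin of muscle, was at 431 against 126 and 114 with Myod1 at 0. Their part in the values of these members was not tested.

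**Figure D4:**
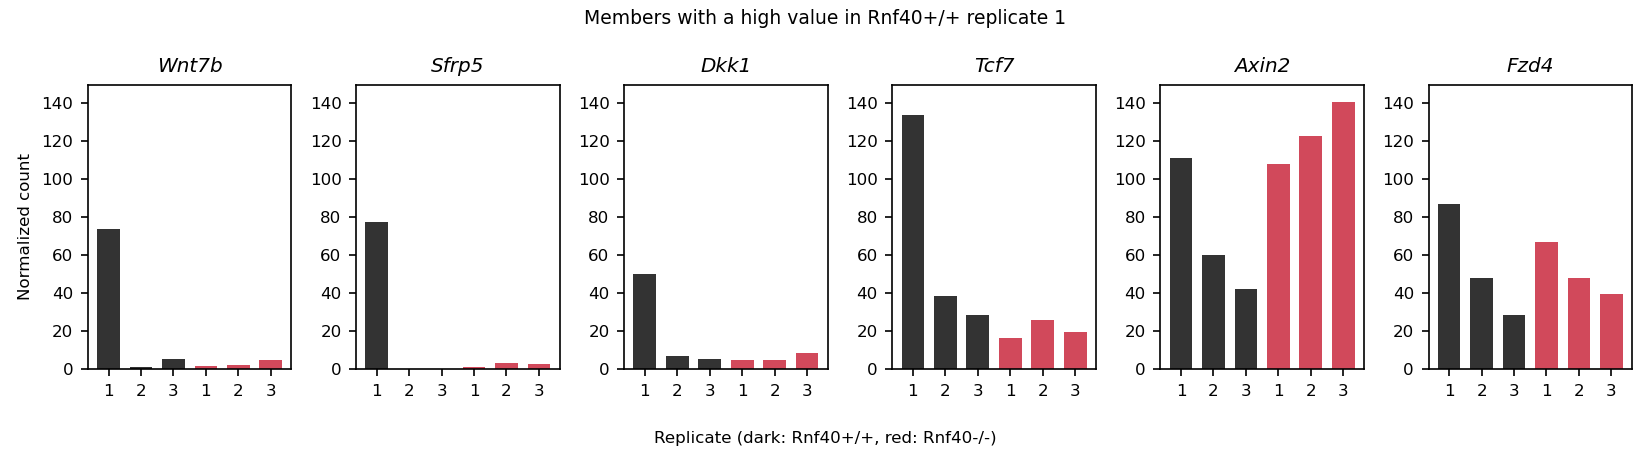
Normalized counts of 6 members in the 3 Rnf40+/+ (dark bars) and 3 Rnf40-/- (red bars) libraries, on axes that start at 0. The first Rnf40+/+ library holds 74.0 for Wnt7b, 77.6 for Sfrp5, 50.2 for Dkk1 and 134 for Tcf7, above every other library, and in Axin2 it reaches the Rnf40-/- values.

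Other genes of the pathway were taken from 8 lists with 90 genes, of which 77 were tested. A total of 57 were called (74.0%), 21 higher (27.3%) and 36 lower (46.8%). Those higher include Notum and Tnfrsf19, which passed the limit on reads only through their Rnf40-/- libraries. Over all genes 47.4% were called, 23.3% higher and 24.1% lower. Among 14 tested common target genes, 2 rose and 11 fell, and among 8 other secreted or membrane antagonists, 1 rose and 6 fell. Of 12 nuclear cofactors, 5 fell and none rose, and the remaining 7 did not pass. The destruction complex and beta-catenin list had 7 genes higher and 5 lower of 17.

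Near the R-spondins, Lgr5, an R-spondin receptor and stem cell marker, had the largest fall of the listed genes, from 927, 966 and 1148 to 207, 221 and 204 (log2 fold change -2.26, adjusted p = 1.86e-08 from limma). Lgr6, its paralog, rose from 49.0, 22.4 and 21.6 to 67.3, 59.5 and 65.1 (log2 fold change 1.12, adjusted p = 0.00975). Lgr4, a further R-spondin receptor of this family, fell from 844, 878 and 974 to 716, 725 and 716 (log2 fold change -0.32, adjusted p = 0.00527). Notum, an enzyme that removes the lipid from WNT ligands, had 7.17, 3.06 and 7.99 in Rnf40+/+ and 20.4, 32.4 and 29.3 in Rnf40-/- libraries (log2 fold change 2.06, adjusted p = 0.00202). Every Rnf40+/+ library of Notum was below the limit on reads. It was tested only through the Rnf40-/- libraries, where it is high, so its call is no independent evidence of a rise. Porcn, the enzyme that adds the lipid, had 219, 86.7 and 112 in Rnf40+/+ and 73.4, 67.8 and 67.0 in Rnf40-/- libraries (log2 fold change -0.88, adjusted p = 0.0205). Without Rnf40+/+ replicate 1, where it was highest, the log2 fold change of Porcn was -0.50 and did not pass, and it also did not pass without Rnf40-/- replicate 2 or 3.

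Of the antagonists outside the member families, Serpinf1, which encodes the secreted protein PEDF, fell the most, from values of 11031 to 12474 in Rnf40+/+ to values of 3740.4 to 4330.1 in Rnf40-/- libraries (log2 fold change -1.53). Kremen1, a receptor for Dickkopf proteins, was the one that rose, by a log2 fold change of 0.20 (adjusted p = 0.0191), and its call was lost without Rnf40-/- replicate 1 (0.18). Inside the cell, Apc2, a relative of the tumour suppressor Apc, went from 344, 347 and 309 to 129, 109.6 and 116 (log2 fold change -1.49, adjusted p = 1.9e-06). Ctnnbip1, an inhibitor of beta-catenin, rose by 0.46, and Tle2, a Groucho corepressor of TCF factors, had a log2 fold change of -0.78. Beta-catenin itself, Ctnnb1, which was added after its values were seen, rose from values of 14943 to 16126 to values of 18707 to 19596 (log2 fold change 0.32, adjusted p = 0.0018).

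Of the intracellular feedback genes, Dact2 and Dact3, which bind Dishevelled, moved apart, Dact2 at a log2 fold change of 1.34 and Dact3 at -1.22. Their levels differed widely, with means of 15.4 in Rnf40+/+ and 40.5 in Rnf40-/- libraries for Dact2 and of 1972 and 847 for Dact3. Of the planar polarity receptors, Celsr2 stood at 1.14 and Celsr3 at -1.09. In the list of common targets Wisp2, a matricellular protein, fell most (log2 fold change -1.60, adjusted p = 2.16e-07) and Tnfrsf19, a receptor of the TNF family, rose most, from 11.9, 6.12 and 7.99 to 31.6, 25 and 22.7 (log2 fold change 1.53, adjusted p = 0.00521). Not every Rnf40+/+ library of Tnfrsf19 passed the limit on reads. It was tested through the Rnf40-/- libraries, where it is high, so its call is no independent evidence of a rise. Target genes on such lists also answer to other signals.

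**Figure D5:**
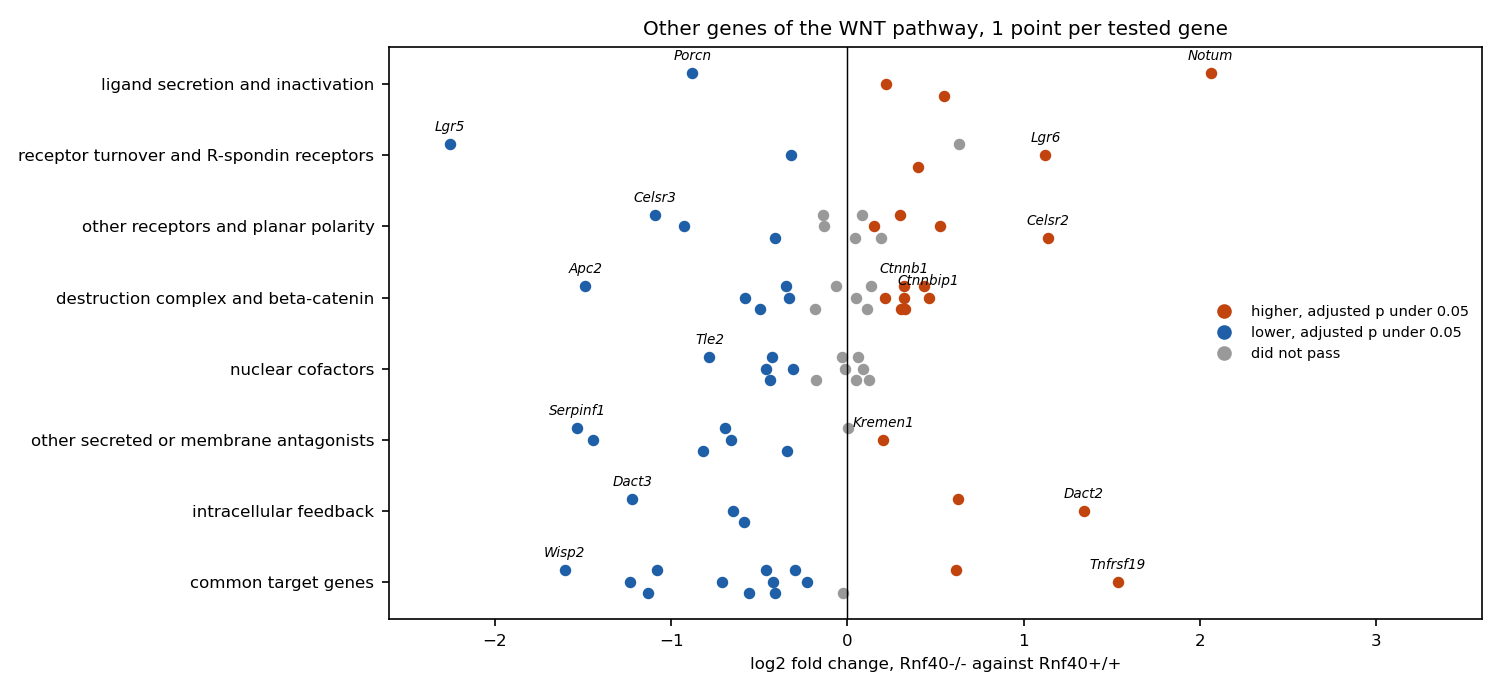
Log2 fold changes of the 77 tested genes in 8 lists of other WNT pathway genes, 1 point per gene. Colours show whether the gene rose, fell or did not pass at an adjusted p under 0.05. Genes named in the text are labelled, except Lgr4. Points of the common targets and of the other antagonists lie mostly left of 0 (11 of 14 and 6 of 8 fell), while the destruction complex list is spread over both sides.

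The supplementary lists of the study class genes by chromatin marks in MEFs, and the copies used here are shorter than the full lists, so membership is only described. Wnt5a, Fzd1, Fzd2, Fzd5, Fzd7, Fzd8, Rspo2 and Sfrp1 were in the list of genes with a broad H3K4me3 domain, a mark of active promoters. Of these 8 members 5 fell, Fzd5 rose, and Fzd1 and Fzd7 did not pass, where 24.1% of all genes were called lower and 23.3% higher. One of the 5, Sfrp1, lost its call under 4 alternatives. A total of 12 members were in the list of EZH2 targets, genes bound by the Polycomb methyltransferase. Of these, 8 were below the limit on reads, Axin2 and Sfrp2 rose, and Lef1 and Wnt3a did not pass. The call of Axin2 was lost under 4 alternatives and that of Sfrp2 under 6. Dkk2 and Wnt10b were in the list of genes with decreased H3K27me3, in which every tested gene had an unadjusted p of at most 0.0387 in these libraries, so that the list is no independent evidence of direction. Lrp5 was the one member in the list of sharp H3K4me3 domains.

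The marker genes of fibroblasts were abundant in all libraries, and 8 of 10 were lower in Rnf40-/- MEFs. Over all genes tested, 24.1% were called lower and 23.3% higher. Of the 8, Vim (adjusted p = 0.0483 from limma) stayed called in only 1 of the 6 fits with a library left out. The summed normalized counts of the fibroblast markers ranged from 669465 to 741504 in Rnf40+/+ and from 400462 to 403413 in Rnf40-/- libraries. Of 8 tested macrophage markers 2 rose and 3 fell, with sums of 5244 to 9476 in Rnf40+/+ and 3399 to 3771 in Rnf40-/- libraries. Of 6 endothelial markers 3 rose (Pecam1, Cdh5 and Kdr) and 1 fell (Emcn), with sums of 149 to 284 and 236 to 335. Emcn went from a mean of 126 in Rnf40+/+ to 55.3 in Rnf40-/- libraries. The means of Pecam1, Cdh5 and Kdr went from 3.75, 2.76 and 27.4 to 27.6, 31.6 and 84.5. Pecam1 and Cdh5 were below the limit on reads in every Rnf40+/+ library. They were tested only through the Rnf40-/- libraries, where they are high, so their calls are no independent evidence of a rise. Of 4 tested epithelial markers 1 rose, Cldn4, from a mean of 6.10 in Rnf40+/+ to 19.7 in Rnf40-/- libraries (log2 fold change 1.68, adjusted p = 0.012 from limma). Cldn4 too was tested only through the Rnf40-/- libraries. Sums of the epithelial markers were 40.8 to 109.9 and 59.5 to 83.6, those of the neural markers 1392 to 2826 and 1417 to 1611, and those of the skeletal muscle markers, of which Acta1 and Des fell and Myod1 had no read, 1709.7 to 4882 and 438 to 496. The part of other cell types in the changes of the WNT genes was not tested.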

How the data were processed

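RNA-seq of 3 Rnf40+/+ and 3 Rnf40-/- MEF samples was analysed. The authors mapped reads to the mm9 transcriptome and normalized them with DESeq (version 1.14.0, with Bowtie2 version 2.1.0, per the submitters' processing notes), so that the deposited signal is the count of reads of a gene divided by 1 size factor per library. The counting tool is not given in the sources used here. All positive values were whole multiples of 1 read (within 0.01 read), and the reads were recovered from them. The depth was 17053436 to 26344170 reads per library. Limma (version 3.58.1, lmFit and eBayes with a trend, pseudocount 1, R version 4.3.3) was run on all genes kept by filterByExpr of edgeR (version 4.0.16) and tested on simulated data. Samples were grouped by their labels, with genotype as the only term.

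Alternatives were TMM, upper-quartile and DESeq2 (version 1.42.0) scaling, no filter, a minimum of 10 reads per library, a mean above 15, pseudocounts of 0.5 and 5, the edgeR quasi-likelihood and DESeq2 Wald tests, a replicate block and each library left out. Each tested member is named, and in each other list the called genes with the largest rise and fall and a mean above 15. Lgr4 was added beside Lgr5 and Lgr6 after its values were seen. Members and lists were chosen with earlier results of these data known. Exon lengths and positions are from the mm9 annotation. Promoter windows are from RefSeq on GRCm38.p6. The study's other assays were not analysed here.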

Additional observations from a re-analysis of the deposited data

How the results depend on the processing

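Of the 22 called members, 16 (8 higher and 8 lower) stayed called in the same direction under all 17 alternatives, 6 lost the call under at least 1, and none reversed. Members higher numbered 8 to 12 and members lower 8 to 12 when 1 library was left out. The other pathway genes numbered 17 to 21 higher and 29 to 35 lower. With the thresholds of the study's methods, 2 members were lower, and 1 to 2 with a library left out, the low value being that without Rnf40+/+ replicate 1. Members higher by them were 2, and 2 to 3 with a library left out, 3 being the value without Rnf40+/+ replicate 1 or replicate 2. The median log2 fold change of the members was 0.16 with no gene filter, which adds members with few reads.

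Reversals were seen only in members that did not pass. Wnt4 was at -0.043 with edgeR and -0.013 with DESeq2, and Fzd4 at -0.048 and -0.059. With 1 library left out, the log2 fold change ranged from -0.22 to 0.0061 for Wnt11, from -0.20 to 0.15 for Wnt2b, from -0.76 to 0.17 for Wnt3a, from -0.37 to 0.59 for Wnt4, from -0.35 to 0.43 for Fzd4, from -0.00077 to 0.35 for Fzd6 and from -0.033 to 0.28 for Sfrp4. The cause was not tested.

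Whether same-numbered samples were paired is not stated in the sources. Their deviations from the genotype mean correlated at -0.0153, 0.0257 and 0.0224. These values show no shared deviation, but they cannot tell whether the samples were paired. With a replicate block 13 members were higher and 11 lower, and 8217 genes were called in place of 7764, with Lef1 and Wnt10a added. Not every sample correlated best with its own number. Depth limits the members with few reads, and no group was large enough to test for a library that lies apart.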

Other observations

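Some genes below the limit on reads held reads mostly in one genotype, and they are given as reads or normalized counts with no test. Sp5, a transcription factor gene that is a direct target of canonical WNT signalling, had normalized counts of 0, 0 and 0.799 in Rnf40+/+ and 8.16, 11.5 and 17 in Rnf40-/- libraries. Wnt8a had 2, 0 and 2 reads in Rnf40+/+ and 12, 7 and 5 in Rnf40-/- libraries. Wnt6 had 0, 0 and 1 reads against 4, 1 and 7. Fzd9 had 6, 6 and 12 reads in Rnf40+/+ and 4, 0 and 1 in Rnf40-/- libraries. Sostdc1, a secreted antagonist of WNT and BMP signalling, had normalized counts of 0, 0 and 0.799 against 3.06, 7.31 and 5.67. Most of these values lie near the limit of 3 reads per library.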
